A study of Mus musculus with 16 samples.

Results

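The 35 genes described here mark the somatic cells of the testis: 14 of Sertoli cells, 7 of Leydig cells, 8 of peritubular and interstitial cells, 3 of blood vessels and 3 of macrophages. A gene's promoter was taken as the 1 kb on either side of its start site, and a promoter had a peak in a list when any base of a listed peak fell in that span. The lists give positions in the mouse build mm9, the gene table used was one of GRCm38, and start sites were carried over by the offset that best matched the start sites of neighbouring genes to peaks of the B6 list. With the 20 neighbours on each side, 23 of the 35 genes had a clear offset, of 7335 protein-coding genes placed among 17288. A second placement, chosen after seeing the data, used longer blocks of constant offset and placed 29 of the 35, of 15941 genes in all. The 23 genes placed by both ways had the same calls in all 3 lists, while their offsets differed by 3 to 1409 bp (median 642), so distances from a start site are approximate. Calls of genes outside the 35 could differ between the placements, as they did for Tssk1 and Lhb. The 6 added by the second placement were Kitl, Gdnf, Insl3, Nr2f2, Des and Tek. Gata4, Clu, Star, Pdgfra, Csf1r and Adgre1 had no clear offset by either way and are not analysed here.

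H3K4me3, trimethylation of lysine 4 on histone H3, is found at the start sites of most active genes and at many start sites held ready for activity. The seminiferous tubule of a juvenile testis holds Sertoli cells, which nurse the germ cells, and is wrapped by contractile peritubular cells. Outside the tubules lie Leydig cells, which make testosterone, with vessels, fibroblast-like cells and macrophages.

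Chromatin from whole testis of mice aged 13 days post-partum was precipitated with a rabbit polyclonal antibody to H3K4me3 in 3 lines, each with 2 ChIP libraries and 1 input. The series studies PRDM9, a meiotic histone methyltransferase that adds the same mark at recombination sites in germ cells. The B6 mice are labelled C57BL/6JOlaHsd and carry no transgene in the labels, the B6-TgWT mice C57BL/6J-Tg(RP23-159N6*)43Bdm and the B6-TgYF mice C57BL/6JRj-Tg(RP23-159N6*)23Bdm. What is known of the study gives the transgenes as Prdm9, in an active form (WT) or with a mutated catalytic domain (YF), so that line, substrain and transgene cannot be told apart. The B6 list carries the number 12 in its name, against the 13 days of the labels. The authors gave 1 list for each line, covering both ChIP libraries, with 51170 (B6), 47648 (B6-TgWT) and 42496 (B6-TgYF) peaks outside the Y chromosome. No list holds read counts, so the depth behind a peak is unknown. There is no replicate check of any difference between lists, and no test was run. Promoters of germ cell genes were present in the same lists, with a peak at 14 of 16 placed spermatogonial genes and at 18 of 19 placed meiotic prophase genes in each list by the second placement.

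Promoter sequence was available from the RefSeq promoter table (GRCm38.p6) for 21 of the 35 genes. The other 14, Sox9, Amh, Wt1, Gata4, Nr5a1, Clu, Star, Cyp17a1, Myh11, Tagln, Pecam1, Cdh5, Csf1r and Adgre1, had no entry. The 8 sequences below are the 250 bases before the start site, 5′ to 3′ on the gene's strand. Ptch1 and Kitl had the highest CpG content and Nr2f2 and Tek the lowest, and Hsd3b1 is shown, chosen after its values were seen, as a promoter without a peak. In these 5 the capitals mark each CpG dinucleotide. They came from chr13:63565736-63565985 (minus strand), chr10:100015571-100015820 (plus strand), chr7:70366747-70366996 (minus strand), chr4:94739039-94739288 (plus strand) and chr3:98859795-98860044 (minus strand).
Ptch1: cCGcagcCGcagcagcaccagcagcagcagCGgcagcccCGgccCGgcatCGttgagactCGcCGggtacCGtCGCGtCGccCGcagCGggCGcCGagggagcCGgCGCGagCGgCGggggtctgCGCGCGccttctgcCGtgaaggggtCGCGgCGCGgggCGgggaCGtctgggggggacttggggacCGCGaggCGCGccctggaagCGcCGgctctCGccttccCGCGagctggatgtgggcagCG
Kitl: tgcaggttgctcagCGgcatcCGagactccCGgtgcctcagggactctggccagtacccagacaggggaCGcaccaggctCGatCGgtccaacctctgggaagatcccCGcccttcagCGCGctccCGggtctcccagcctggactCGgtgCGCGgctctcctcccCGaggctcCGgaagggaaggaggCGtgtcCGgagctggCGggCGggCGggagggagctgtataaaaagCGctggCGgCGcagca
Nr2f2: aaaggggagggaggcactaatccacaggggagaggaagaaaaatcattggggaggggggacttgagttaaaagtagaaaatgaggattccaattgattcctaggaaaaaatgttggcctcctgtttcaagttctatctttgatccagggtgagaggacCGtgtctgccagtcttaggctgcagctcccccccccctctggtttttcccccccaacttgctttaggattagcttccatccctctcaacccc
Tek: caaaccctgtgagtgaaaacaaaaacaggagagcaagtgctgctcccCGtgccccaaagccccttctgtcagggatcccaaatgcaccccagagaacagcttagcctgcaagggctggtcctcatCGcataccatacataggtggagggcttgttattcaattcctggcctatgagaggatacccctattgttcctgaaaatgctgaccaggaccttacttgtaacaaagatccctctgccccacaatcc
Hsd3b1: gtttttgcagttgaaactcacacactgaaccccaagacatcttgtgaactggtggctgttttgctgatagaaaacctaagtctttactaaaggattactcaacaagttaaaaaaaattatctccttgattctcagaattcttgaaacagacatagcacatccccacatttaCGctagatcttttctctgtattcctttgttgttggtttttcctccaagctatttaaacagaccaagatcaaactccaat
In the next 3 the capitals mark a searched motif, TATAAA in Gdnf and Inhba and GGGCGG in Lhcgr. They came from chr15:7809798-7810047 (plus strand), chr13:16011601-16011850 (plus strand) and chr17:88792015-88792264 (minus strand).
Gdnf: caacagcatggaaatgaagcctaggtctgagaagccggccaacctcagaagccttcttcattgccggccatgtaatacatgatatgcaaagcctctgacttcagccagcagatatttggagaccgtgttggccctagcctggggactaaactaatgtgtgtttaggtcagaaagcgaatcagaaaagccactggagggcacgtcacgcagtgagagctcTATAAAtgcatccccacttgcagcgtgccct
Inhba: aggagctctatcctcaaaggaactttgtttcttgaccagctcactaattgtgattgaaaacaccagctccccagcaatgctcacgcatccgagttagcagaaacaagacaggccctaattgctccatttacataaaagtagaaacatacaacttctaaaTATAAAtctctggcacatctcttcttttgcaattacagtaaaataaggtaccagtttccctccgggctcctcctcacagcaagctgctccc
Lhcgr: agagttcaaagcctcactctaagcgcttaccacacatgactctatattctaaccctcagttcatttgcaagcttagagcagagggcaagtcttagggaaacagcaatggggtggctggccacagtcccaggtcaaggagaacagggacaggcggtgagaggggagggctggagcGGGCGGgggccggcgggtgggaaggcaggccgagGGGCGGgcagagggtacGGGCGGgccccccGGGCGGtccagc
Within these windows Ptch1 held 41 CpG and Kitl 23, while Nr2f2 and Hsd3b1 held 1 each and Tek held 2.

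The share of somatic cell promoters with a peak was about that of all genes, a little below it by one placement and a little above it by the other. By the neighbour placement, 18 of 23 genes had a promoter peak in B6, where 81.1% of the other placed genes had one. In B6-TgWT it was 17 of 23 against 79.9%, in B6-TgYF 17 of 23 against 80.1%, and in all 3 lists 17 of 23 against 79.2%. By the block placement the counts were 24 of 29 in B6 against 73.9%, 23 of 29 in B6-TgWT against 72.6%, 23 of 29 in B6-TgYF against 72.7%, and 23 of 29 in all 3 against 71.8%. No list held a promoter peak for 5 genes, the steroid enzyme genes Cyp17a1, Hsd3b1 and Hsd3b6, the vessel gene Pecam1 and the macrophage gene Cd68, which is 5 of 23 beside 18.4% or 5 of 29 beside 25.6%. A missing peak means only that the list has none there. In whole tissue, fewer cells of a type and less of the mark per cell cannot be told apart. Nor does a peak at a gene show which cells of the testis carry the mark. Values below use the block placement, which places more of the genes. Fold enrichment is the authors' ratio of signal to background for the strongest peak of a promoter, and values from separate lists, each on its own scale, show no change by themselves.

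Sertoli cell genes all had promoter peaks. Each of the 12 placed had a peak in each list, as had all 10 of them placed by neighbours. Their fold enrichment had a median of 26.8 (B6), 18.3 (B6-TgWT) and 22.5 (B6-TgYF). The other placed genes with a promoter peak had medians of 26.03, 20.32 and 23.4. Among all genes with a promoter peak, the Sertoli genes by blocks had median percentiles of 54.0 (B6), 40.7 (B6-TgWT) and 46.3 (B6-TgYF). By neighbours, where Gdnf and Kitl were not placed, the percentiles were lower, at 43.1, 30.7 and 44.2. The Sertoli median fold enrichments by neighbours were 24.9, 16.5 and 22.4, against 26.5, 20.75 and 23.75 for the others. How near the Sertoli median stood to that of all marked promoters thus depended on list and placement.

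Among the transcription factors, Wt1, a zinc finger protein needed for the gonad and for Sertoli cells, had a fold enrichment of 26.78 (B6), 24.12 (B6-TgWT) and 26.54 (B6-TgYF). Its peak was the widest of the set in every list, at chr2:104962892-104975312 in B6 (mm9), 12421 bp from 3770 bp upstream to 8650 bp downstream of the start site. In B6-TgWT the same stretch held a promoter peak of 7807 bp with 3 further peaks, and in B6-TgYF one of 9360 bp with 2 further peaks. Sox9, the factor that directs supporting cells to the Sertoli fate, had 26.91 in B6 over 7126 bp (chr11:112641615-112648740), 16.06 in B6-TgWT over 5702 bp and 24.72 in B6-TgYF over 5820 bp. Its B6-TgWT value stood apart from the other lists, at 0.597 of the B6 value. Nr5a1, the nuclear receptor also called SF-1 that acts in Sertoli and Leydig cells, had 23.04, 16.86 and 13.73 in B6, B6-TgWT and B6-TgYF. In B6 this was 1 peak of 5012 bp with its summit 2402 bp downstream. In the transgenic lists the promoter peak was 1863 and 1935 bp wide, and a stronger separate peak began 1648 and 1641 bp downstream, with fold enrichments of 24.98 and 26.64. The lower promoter value of Nr5a1 in the transgenic lists thus belongs to a region that those lists divide in a pair of peaks.

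The secreted hormones came next. Inha, which encodes the alpha subunit of the inhibins that restrain FSH release, had 32.5 (B6), 24.98 (B6-TgWT) and 23.02 (B6-TgYF) over peaks of 7749, 7073 and 7062 bp. Its peak also covered the start of the neighbouring gene Obsl1, and its summit lay 1481 bp upstream of the Inha start in B6, so how much of it belongs to Inha cannot be read from these lists. Inhbb, a beta subunit shared by inhibins and activins, had 30.27, 23.26 and 26.24. Inhba, the other beta subunit measured, was weaker at 21.62, 12.19 and 17.36. The alpha subunit and Inhbb were above Inhba in each of the 3 lists. Amh, the hormone that makes the Müllerian ducts regress, had 27.65, 19.88 and 25.05. No listed peak covered the Amh start site itself. The nearest one began 784 (B6), 890 (B6-TgWT) and 580 bp (B6-TgYF) downstream, inside the 1 kb limit. By the neighbour placement these distances were 516, 622 and 312 bp. The summits of these Amh peaks lay 2016 (B6), 2020 (B6-TgWT) and 2012 bp (B6-TgYF) downstream by blocks. The Amh values are thus those of a place outside the 1 kb limit.

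Gdnf and Kitl are ligands that Sertoli cells send to germ cells. Gdnf, the growth factor that maintains spermatogonial stem cells, had 32.72 in B6, the highest value of the set, 23.49 in B6-TgWT and 27.7 in B6-TgYF. Kitl, the ligand of the Kit receptor on differentiating spermatogonia, had 30.96, 19.71 and 22.02. Both were among the 8 highest of the set in every list, though Kitl lay below the medians of the other marked genes in both transgenic lists. Dhh, the hedgehog ligand that Sertoli cells send to Leydig and peritubular cells, had 13.24, 14.01 and 18.53, and was one of 2 Sertoli genes with the lowest value in B6. The Dhh summit lay 300 bp (B6), 329 bp (B6-TgWT) and 4259 bp (B6-TgYF) downstream of the start. Its B6-TgYF value therefore belongs to another place than the other 2 values. Ptch1, the receptor of Dhh, is described with the interstitial genes.

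Cldn11, a claudin of the tight junctions that close the blood-testis barrier, had 21.57 (B6), 15.19 (B6-TgWT) and 21.76 (B6-TgYF). Fshr, the receptor through which FSH acts on Sertoli cells, had 8.56, 10.73 and 9.49. Fshr was the lowest Sertoli gene of each list.

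**Figure D1:**
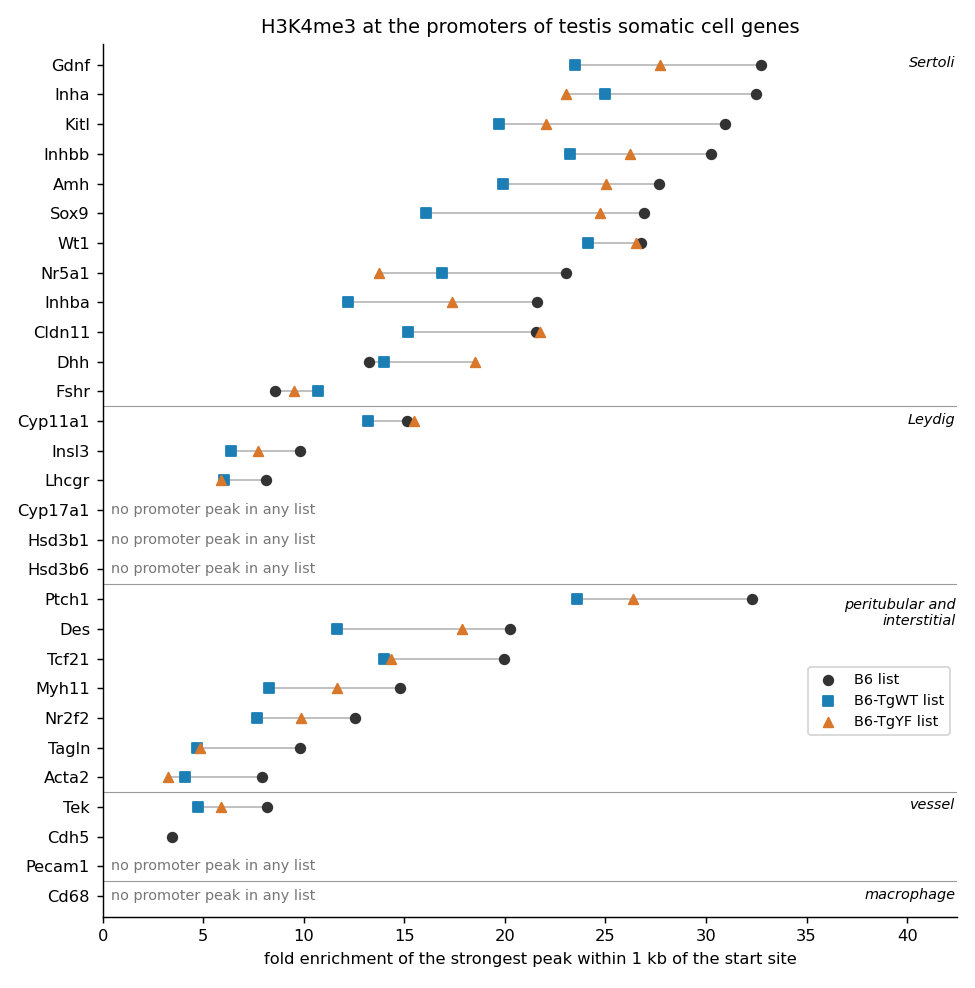
Fold enrichment of the strongest promoter peak (horizontal axis, the authors' ratio to background) of each of the 29 placed genes, grouped by cell class. Circles are the B6 list, squares B6-TgWT and triangles B6-TgYF, a grey line joins the values of a gene, and each list gives 1 value with no error. Sertoli genes reach 32.72, and 5 genes have no promoter peak in any list.

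Leydig cell genes were split. Of 6 placed, 3 had a promoter peak in each list and 3 had none, and by neighbours it was 2 of 5. Among the other placed genes, 71.8% by blocks and 79.2% by neighbours had a peak in all 3 lists. Cyp11a1, the side-chain cleavage enzyme that begins steroid synthesis, had a fold enrichment of 15.11 (B6), 13.17 (B6-TgWT) and 15.5 (B6-TgYF). Its peaks were narrow, 1152, 1059 and 1256 bp (chr9:57845296-57846447 in B6). The 3 lists lay closer together for Cyp11a1 than for most genes of the set. Insl3, the peptide hormone that guides testis descent, had 9.82, 6.4 and 7.73. Lhcgr, the receptor for LH on Leydig cells, had 8.14, 6.05 and 5.86. In B6 a second, weaker peak of 3.35 lay upstream of the Lhcgr start. Both genes were thus in the lowest part of the promoter range, at percentile 8.1 or below among all genes with a promoter peak of each list.

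Cyp17a1, the enzyme that turns progestins into androgen precursors, had no promoter peak, and its nearest peaks lay 16.5 kb upstream in B6, 16.6 kb in B6-TgWT and 16.5 kb in B6-TgYF. Hsd3b1 and Hsd3b6 encode near copies of the 3-beta-hydroxysteroid dehydrogenase, so their calls are uncertain where reads fit several copies. In B6 the nearest peak to both was a narrow one of fold enrichment 5.22 (chr3:98624755-98625157), 38.6 kb downstream of Hsd3b1 and 6.4 kb upstream of Hsd3b6. In the transgenic lists the nearest peak lay 81.1 kb upstream of Hsd3b1 and, for Hsd3b6, 126.4 kb upstream in B6-TgWT and 126.5 kb in B6-TgYF. No list thus held a peak at the start of these 3 genes, while each held one at Cyp11a1, whose enzyme acts before theirs.

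Peritubular and interstitial genes all had peaks, but over a wide range. Each of the 7 placed had a promoter peak in each list, as had the 5 of them placed by neighbours. Beside these few genes, 71.8% of the other placed genes had a peak in all 3 lists by blocks and 79.2% by neighbours. Ptch1, the hedgehog receptor and itself a hedgehog target, had 32.28 (B6), 23.6 (B6-TgWT) and 26.37 (B6-TgYF) over 7871, 7111 and 7489 bp (chr13:63663063-63670933 in B6). It was in the top 3 of the set in each list. Tcf21, a transcription factor of interstitial progenitors, had 19.96, 14.01 and 14.35. Nr2f2, the nuclear receptor COUP-TFII of interstitial cells, had 12.56, 7.68 and 9.84 at the tabled start. Stronger peaks began 3643, 3586 and 3663 bp downstream of it, with 28.31, 18.31 and 21.16, so the tabled start was not the most marked place of this gene.

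Peritubular cells resemble smooth muscle, and 4 genes of the set encode contractile or filament proteins. Des, an intermediate filament protein, had 20.25 (B6), 11.65 (B6-TgWT) and 17.85 (B6-TgYF). Myh11, a smooth muscle myosin heavy chain, had 14.78, 8.26 and 11.67. Tagln, an actin-binding protein, had 9.8, 4.71 and 4.86. Acta2, smooth muscle actin, had 7.94, 4.11 and 3.26, with −log10 p of 58.5, 20.9 and 18.4. For each of these 4 genes the B6 value was the highest of the 3 lists, and the B6-TgYF peak of Acta2 lay near the bottom of that list's promoters, at percentile 0.2. For Tagln and Acta2 the transgenic values were at most 0.518 of the B6 value.

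These ratios were set beside all promoters with a peak in all 3 lists. The B6-TgWT fold enrichment was at most 0.6 of the B6 value for 7 of 23 genes, where 15.3% of the others met this, a bound chosen after seeing the data. Those 7 were Sox9, Inhba, Acta2, Myh11, Tagln, Des and Tek. In B6-TgYF it was 3 of 23 (Nr5a1, Acta2 and Tagln) where 6.15% of the others met it. Nr5a1 counts here by the promoter part of a region that B6-TgYF divides, and the separate downstream peak had 26.64. Among promoters with a B6 value under 20, the counts were 4 of 11 beside 18.4% in B6-TgWT and 2 of 11 beside 7.57% in B6-TgYF. The median ratio was 0.704 for the somatic genes and 0.77 for the others in B6-TgWT, and 0.803 and 0.872 in B6-TgYF. Most promoters, somatic or not, thus had a lower value in the transgenic lists than in B6, and with 1 list a line the difference between the medians could not be tested.

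Vessel genes had weak promoter peaks or none, and the macrophage gene that was placed had none. Tek, the angiopoietin receptor of endothelial cells, had 8.19 (B6), 4.74 (B6-TgWT) and 5.86 (B6-TgYF). Cdh5, the cadherin of endothelial junctions, had a promoter peak in B6 alone, with a fold enrichment of 3.43 and a −log10 p of 16.0 (chr8:106625437-106627366). Just outside the 1 kb limit, each list held a peak that ended 1198, 1196 or 1252 bp upstream of the Cdh5 start, with 12.31 (B6), 12.62 (B6-TgWT) and 11.15 (B6-TgYF). With a limit of 2 kb Cdh5 therefore had a peak in all 3 lists. Pecam1, an endothelial adhesion molecule, had no promoter peak, and the nearest listed ones lay 7.6 to 8.0 kb upstream. Cd68, a lysosomal protein of macrophages and the only macrophage gene placed, had none either, and its nearest peaks, of 29.19, 22.22 and 15.59, lay 2598, 2676 and 2649 bp downstream. By the neighbour placement these Cd68 distances were 1348, 1426 and 1399 bp, so that a limit of 2 kb gave Cd68 a peak in each list by that placement and in none by blocks.

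As a group the somatic promoters with a peak lay below the middle of all marked promoters. The median fold enrichment of the somatic genes was 20.11 (B6), 14.01 (B6-TgWT) and 17.36 (B6-TgYF), below the medians of 26.03, 20.32 and 23.4 over the other genes. Their median percentile among genes with a promoter peak was 27.1, 23.5 and 26.3, where the others have 50 by construction. Other lists lay below the middle too, with median percentiles of 35.7, 26.7 and 26.2 for spermatogonial genes and 41.5, 41.1 and 40.8 for meiotic prophase genes. Genes of tissues other than testis had 10, 12.6 and 16.2, and spermatid genes 9.2, 6.7 and 7.5. The spermatid values depended on the placement. By neighbours they were 95.1 (B6), 42.1 (B6-TgWT) and 89.4 (B6-TgYF), over 2, 4 and 2 genes with a peak. Tssk1 was the highest spermatid gene in B6 by neighbours and had no peak in any list by blocks. The somatic genes had 27.03, 21.56 and 24.05 by neighbours. Sertoli genes spread over most of the range in B6, from 8.56 to 32.72. The 3 Leydig and 2 vessel genes lay between 3.43 and 15.11, and the peritubular and interstitial genes between 7.94 and 32.28.

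**Figure D2:**
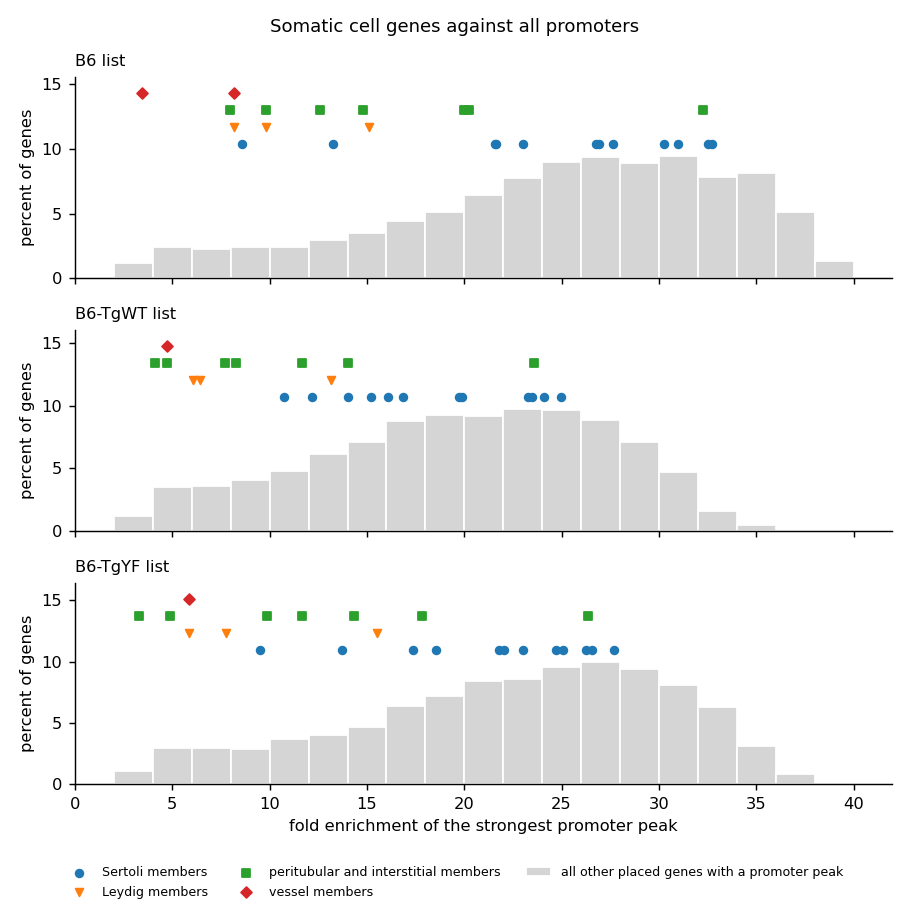
Grey bars give the percent of all other placed genes with a promoter peak (vertical axis) by the fold enrichment of their strongest promoter peak (horizontal axis, bins of 2), for each list. Symbols above the bars are the somatic cell genes by class, whose height has no meaning. Leydig and vessel genes lie left of the bulk of each list, and Sertoli genes reach into it.

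Several somatic promoters lay under very wide peaks. A strongest promoter peak of at least 5000 bp, a size chosen after seeing the data, was found for 8 of 24 somatic genes in B6, where 1.45% of the other marked genes had one. In B6-TgWT it was 4 of 23 beside 0.719%, and in B6-TgYF 7 of 23 beside 0.959%. The 8 in B6 were Wt1, Ptch1, Inha, Sox9, Gdnf, Dhh, Inhbb and Nr5a1, of which Ptch1 alone is not listed as a Sertoli gene. Gdnf had widths of 6896, 4825 and 6972 bp, and Inhbb 5064, 4095 and 4845 bp. The narrow end held Tagln, with 1128, 781 and 968 bp, and Tek, with 1150, 960 and 926 bp. The median width was 5038 bp for Sertoli and 1249 bp for Leydig genes in B6, against 2088 bp over the other genes. Over the whole set it was 3548.5 bp. In B6-TgWT the whole set had a median of 1967 bp, near the 1917 bp over the other genes. In B6-TgYF it had 2341 bp, against 1980 bp. Wide medians in B6 were not particular to the set. In B6 genes of tissues other than testis had 3574 bp and hormone signalling genes 3164 bp. Another Sertoli list had 3007 bp and spermatogonial genes 2843 bp. Below 2088 bp lay the lists of other vessel (1573 bp), meiotic prophase (1833 bp) and spermatid genes (821.5 bp). In B6-TgWT and B6-TgYF the genes of other tissues, 7 with a peak, had 2015 and 1314 bp. Sertoli genes of the set had 3727.5 and 4957.5 bp there, and hormone signalling genes 2881 and 2985.5 bp. The other Sertoli list had 2423 and 2609 bp, and spermatogonial genes 2437 and 2359.5 bp. By the neighbour placement the wide counts were 7, 4 and 6, beside 1.48%, 0.753% and 0.956%.

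Every one of the 23 promoter peaks shared by the lists was narrower in B6-TgWT than in B6, where 83.1% of the other promoters were. In B6-TgYF 16 of 23 were narrower than in B6, beside 75.0%. A width of at most 0.5 of that in B6 was found for Amh, Nr5a1 and Dhh in B6-TgWT, 3 of 23 beside 2.11%, and for Nr5a1 in B6-TgYF, 1 of 23 beside 1.14%. Dhh had widths of 5684, 1740 and 5846 bp, and in B6-TgWT a second peak of 16.01 began 1777 bp downstream. Amh had 3636, 1511 and 1827 bp, and a second peak began 2520 bp downstream in B6-TgWT and 2494 bp in B6-TgYF. In each of these cases the B6 list gives 1 peak over the stretch where the other list gives 2, so these widths differ in how the stretch was divided.

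**Figure D3:**
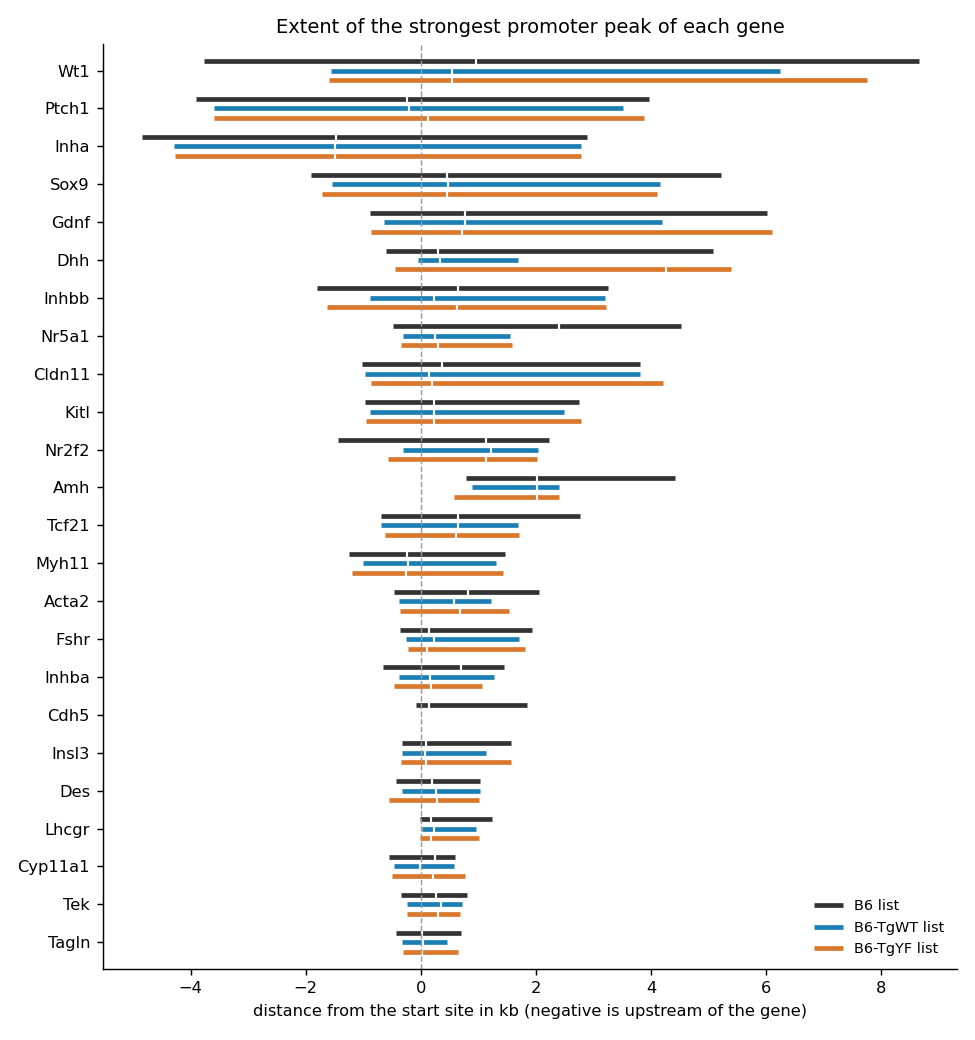
Extent of the strongest promoter peak of the 24 genes with one in B6, ordered by B6 width. The horizontal axis is the distance from the start site in kb along the gene, each bar is the peak of 1 list, and the white tick is its summit. Wt1 is the widest in all 3 lists, and the Amh peaks lie wholly downstream of the start.

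The order of the genes was much alike in the 3 lists. Over the 23 genes with a peak in each, Spearman's rho of the promoter percentile was 0.929 between the B6 and B6-TgWT lists, 0.911 between B6 and B6-TgYF and 0.93 between both transgenic lists. Over the other 11430 genes it was 0.692, 0.703 and 0.768. These are descriptions across genes, which share the libraries of each list. The somatic genes spread over low and high values, as the other genes also do, and why the rho values differ was not tested. Gdnf, Inha, Ptch1, Kitl, Inhbb, Wt1 and Amh were among the 8 highest in each list, and Acta2, Tagln, Tek and Lhcgr were among the 5 lowest of the 23.

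A few genes held another rank among all promoters from list to list. Percentiles come from lists of different lengths and show no change by themselves. Kitl lay at percentile 73.0 (B6), 47.3 (B6-TgWT) and 44.2 (B6-TgYF), and was the only gene at least 20 points lower in both transgenic lists, 1 of 23 where 5.18% of the others were. Sox9 and Kitl were at least 20 points lower in B6-TgWT than in B6, 2 of 23 beside 14.8%. Inha, Kitl and Nr5a1 were so in B6-TgYF, 3 of 23 beside 14.8%, with Nr5a1 counted by the promoter part of its divided region. For Inha the percentile was 79.7 (B6), 72.2 (B6-TgWT) and 48.4 (B6-TgYF). None of the 23 was at least 20 points higher, beside 15.4% in B6-TgWT and 15.3% in B6-TgYF. Of the 23, 10 lay below percentile 20 in B6 and could not fall by 20 points, so nothing is read from these shares.

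Beyond the promoters, peaks from 1 to 10 kb of a start site that overlapped no peak of the other lists were counted. The B6-TgWT list held such a peak for 3 of 29 genes, where 7.9% of the others had one. Near Sox9 it lay 2021 bp upstream with a fold enrichment of 7.22 (chr11:112640383-112641498), near Nr5a1 6325 bp upstream with 3.99, and near Inha 5603 bp upstream with 3.16. The B6 list, the longest, held one for 8 of 29 genes beside 8.34%, with values from 2.81 near Sox9 to 5.33 near Inhbb. The B6-TgYF list held one for 1 of 29, Inhba, beside 0.421%, at 3.89. Each of these peaks was weaker than the promoter peak of the same gene in the same list, where the gene had one.

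Further lists of related genes, not all of them genes of the same cells, were counted in the same way. Their strength often differed from that of the genes above. By blocks, 71.8% of the placed genes outside the set had a peak in all 3 lists. All 14 placed genes of another Sertoli list had a promoter peak in each list, with a median percentile of 27.9 in B6, against 54.0 for the 12 Sertoli genes of the set. Of 13 placed steroid hormone genes 9 (B6), 8 (B6-TgWT) and 9 (B6-TgYF) had a peak, and Akr1b7, Cyp19a1, Hsd17b3 and Insl5 had none. Those with a peak had a median fold enrichment of 24.8 and percentile of 44.3 in B6, where the 3 marked Leydig genes had 9.8 and 8.1. The steroid hormone genes were not chosen as Leydig markers, so these medians do not compare Leydig genes. By neighbours 1 of 4 placed steroid hormone genes, Por, had a peak in each list. Hsd17b3 makes testosterone from its last precursor, so a further Leydig enzyme was without a listed promoter peak. All 9 placed peritubular and stromal genes had a peak in B6 and B6-TgYF and 8 in B6-TgWT, with a median percentile of 6.3 in B6, against 15 for the 7 of the set. Among vessel genes 5 of 7 had a peak in each list, with none at Robo4 and Tie1, and the median percentile in B6 was 12.9, against 3.3 for Tek and Cdh5. Of 15 macrophage and blood genes 5 had a peak in each list, and Aif1, C1qb, Cd163, Cx3cr1, Fcer1g, Fcgr3, Itgam, Laptm5, Lyz2 and Ptprc had none. Hormone and growth factor signalling genes had a peak at 10 of 11 in each list, all but Fshb. By neighbours it was 4 of 5, all but Lhb, which had a peak by blocks. For scale, genes of tissues other than testis had a peak at 7 of 17, and spermatid genes, of a stage that a testis of this age has hardly reached, at 6 of 19 (B6), 9 (B6-TgWT) and 6 (B6-TgYF).

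**Figure D4:**
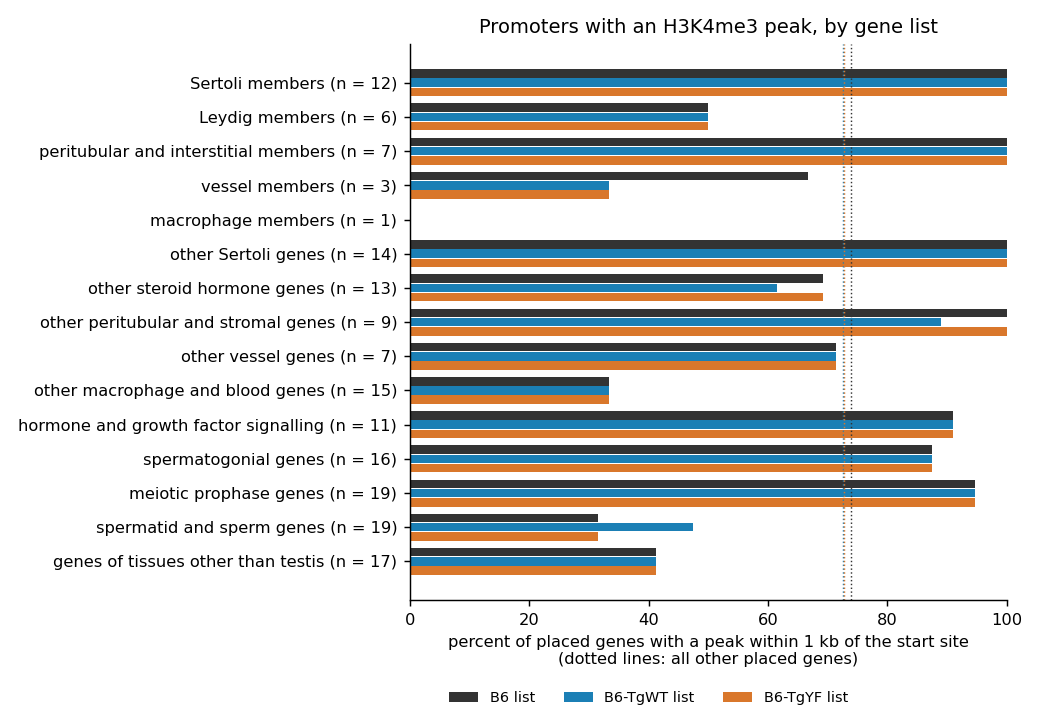
Percent of placed genes with a peak within 1 kb of the start site (horizontal axis) in each list, for the somatic classes and for the other gene lists, with the number of placed genes in brackets. Dotted lines give the percent over all other placed genes, 73.9, 72.6 and 72.7. Sertoli and peritubular lists reach the right edge in B6, while Leydig and macrophage lists stay left of the lines.

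The sequences of the promoters were set beside these values. CpG content is given as observed over expected CpG in the 300 bases from 250 before to 50 after the start. Where a placed gene had several tabled starts, the start nearest a B6 summit was used. Its median was 0.378 over 21 somatic genes, against 0.594 over 17471 other genes. Ptch1 had the highest at 1.088, Kitl followed at 0.794, and Tek and Nr2f2 had the lowest at 0.149 and 0.109. Below 0.35, 6 of 9 placed somatic genes had a B6 promoter peak, where 23.6% of the other genes in that range had one. These 6 were Inha, Cyp11a1, Nr2f2, Acta2, Des and Tek, and the 3 without were Hsd3b1, Hsd3b6 and Cd68. The B6 summit lay outside the scored bases for Inha, 1481 bp upstream in a peak shared with Obsl1. For Nr2f2 it lay 1139 bp downstream. From 0.35 to 0.6 it was 7 of 7 beside 85.4%, and from 0.6 it was 4 of 4 beside 99.2%. The somatic genes were chosen as markers of cells the testis holds, and the difference between these shares was not tested.

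Among the 17 somatic genes with a sequence and a peak, Spearman's rho between CpG content and B6 fold enrichment was 0.417, and 0.48 over 11753 other genes. Inha, at 0.222, had the second highest B6 value of the set, over a peak shared with Obsl1. Gdnf, at 0.552, had the highest. High values were therefore found over a wide range of CpG content.

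**Figure D5:**
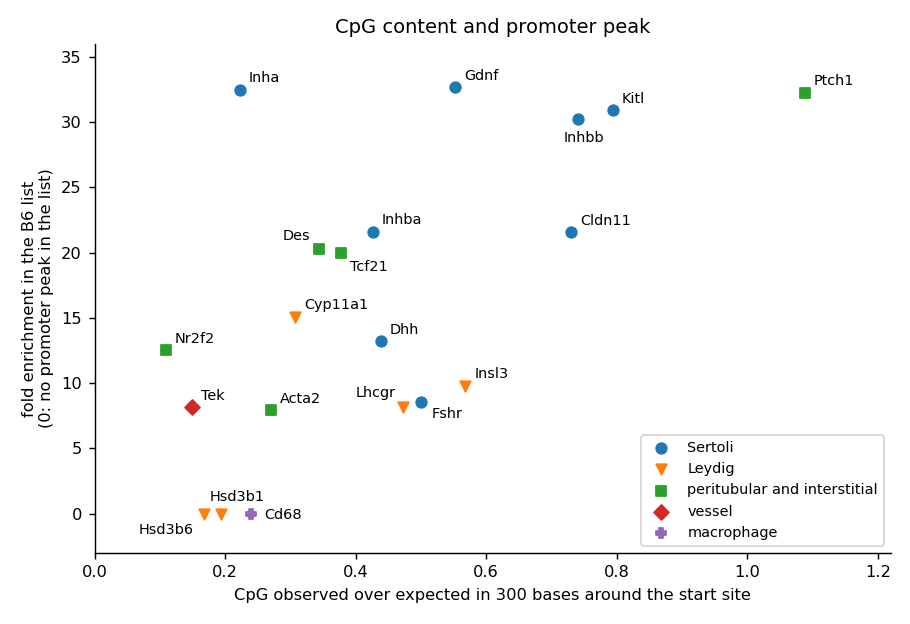
CpG observed over expected (horizontal axis) and B6 fold enrichment of the strongest promoter peak (vertical axis, 0 where the list has none) for the 20 placed somatic genes with a RefSeq promoter sequence, by class. The 3 genes without a peak lie between 0.167 and 0.24 in CpG content, and Inha reaches 32.5 at 0.222.

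Motifs were searched as exact letters on both strands of the 300 bases. TATAAA, the core of the TATA box, was found in 3 of 21 somatic promoters (14.3%) and in 13.0% of the others. In the sequences shown, its first base lies 31 bases before the start in Gdnf, 25 in Kitl and 91 in Inhba. GGGCGG, the GC box bound by Sp1, was found in 10 of 21 (47.6%) and in 47.4% of the others, with 4 copies in the Lhcgr window shown. AAGGTCA, a binding site of SF-1, was in none of the 21 and in 4.01% of the others. GAGGAAGT, an ETS motif, was in none and in 3.17%, and the CArG box of serum response factor in none and in 1.5%. No match says only that these letters are not in these windows. Both shares of the matched motifs were close to those of all promoters.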

How the data were processed

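The 3 H3K4me3 peak lists, 1 for each line in the labels, were used. CASAVA, Bowtie2, BWA, MACS2 and mm9 are named in the submitters' processing notes, with no role or version. The cutoff and the way 2 libraries became 1 list is not given in the sources used here. Columns without a header were read in the order that MACS peak files have. The fold enrichment is the authors' ratio to background, the −log10 p is the authors' value too, and the deposited score, 10 times the −log10 p, was not used further.

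Start sites came from RefSeq tables of GRCm38, with the strand of 14 genes from general knowledge. An offset was clear where at least 40% of the 20 neighbouring start sites on each side, the somatic genes left out, came within 1 kb of a B6 peak, both sides gave offsets within 1 kb, and any offset over 5 kb away matched at least 20 percentage points fewer. The block placement set blocks of at least 10 genes by dynamic programming, aligned them to B6 summits and asked for the same share and lead over the block or around the gene. Among start sites with a B6 summit within 2 kb, summits lay a median of 155 bp (quartiles −330 and 605) downstream by neighbours. By blocks it was 188 bp (54 and 329). Block offsets were themselves chosen to set B6 summits a short way downstream of start sites, so the block values are no check of that placement. The placement code was tested on simulated data, which checks the code alone and not how well real genes were placed. Peaks on the Y chromosome were left out.

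All 35 genes are named by rule, and of the other lists the genes without a peak. Values are single numbers per list, with no error. The genes and lists were chosen with earlier results of these data known. Alternatives were other distances, summits in place of edges, 10 or 40 neighbours, offsets from the B6-TgYF list, all genes at their best offset, fewer or stronger peaks, the nearest peak, ranks by −log10 p and a shorter sequence window. DMC1 libraries and input coverage were not analysed here. Python 3.11.15, numpy 2.4.6, pandas 2.3.3 and matplotlib 3.10.9 were used.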

Additional observations from a re-analysis of the deposited data

How the results depend on the processing

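No paired analysis was possible because the 2 ChIP libraries of a line share a single list, and for the same reason no replicate could be left out. The counts of promoters with a peak were within 1.5 times those of the neighbour placement under most alternatives. They ranged from 11 to 24 in B6, 11 to 23 in each transgenic list and 10 to 23 in all 3. The settings placed from 14 to 34 genes, so these ranges are not of a fixed number of genes. With the peak summit within 1 kb, of the same 23 genes, the count was 12 in B6, 12 in B6-TgWT, 11 in B6-TgYF and 10 in all 3 lists. By peak edges these counts were 18, 17, 17 and 17, and the cause was not tested. With start sites of the promoter table alone, chosen after seeing the data, 14 genes were placed and the count was 11 in each list and in all 3 together. A limit of 2 kb gave 19 in each list.

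Medians had no spread to be judged against, so each value that differs from that of the neighbour placement is given. Ranked by −log10 p, the median percentile in the list was 76 (B6), 74.1 (B6-TgWT) and 71.4 (B6-TgYF), against 79.1, 75.1 and 74.1 by fold enrichment. Within 500 bp, the B6 medians were a fold enrichment of 20, a width of 3461 bp, a −log10 p of 265 and a percentile of 78.1, and those of B6-TgWT a width of 2138 bp and a −log10 p of 137. Within 2 kb, the B6 medians were 21.6, 3461 bp, 274 and 80.2, and the B6-TgYF −log10 p was 205. With the block placement, also chosen after seeing the data, the B6 medians were a fold enrichment of 20.1, a −log10 p of 265 and a percentile of 78.3, and the B6-TgWT −log10 p was 136. By the neighbour placement the B6 medians were 20.8, 3548 bp and 269, while the medians in the text above are by blocks. Over 250 bases before the start alone, the median CpG content was 0.293. Depth is unknown for every list, so weak or missing peaks may be limits of detection.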
